A study of Mus musculus with 12 samples.

Results

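The semaphorins, plexins, neuropilins, ephrins and EPH receptors were examined together in RNA-Seq data from U2OS, a human osteosarcoma cell line. Members were the protein-coding genes whose description in the deposited table starts with semaphorin, plexin, ephrin, EPH receptor or neuropilin, which gave 56 of 58735 genes. They comprised 19 semaphorins, 9 plexins, 2 neuropilins, 8 ephrins and 14 EPH receptors. The other 4 met the wording but belong to different families, namely the plexin domain containing genes PLXDC1 and PLXDC2 and the neuropilin and tolloid like genes NETO1 and NETO2. The description of SEMA4F is misspelt in the table, so this semaphorin was not matched.

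Semaphorins are secreted or membrane-bound ligands that act through plexins, large receptors whose cytoplasmic part switches small GTPases and thereby reshapes the cytoskeleton and cell adhesion. Most class 3 semaphorins, which are secreted, also need a neuropilin as co-receptor. Ephrins are ligands held on the cell surface, by a lipid anchor in the A type and by a membrane-spanning segment in the B type, and they bind EPH receptors, a family of receptor tyrosine kinases that signal where cells touch. Both systems are best known for steering axons and growing vessels, and several of their members also pass signals between osteoblasts and osteoclasts in bone.

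The 12 libraries formed 4 groups of 3 replicates. They were blank U2OS cells, U2OS cells given the siRNA siSRSF1-2, U2OS cells given the siRNA siSRSF1-3, and U2OS cells with overexpression of LINC01134, a long non-coding RNA (OE-LINC01134). Both siRNAs target SRSF1, a serine and arginine rich splicing factor. The columns of the deposited table call it by its older name ASF. Libraries of cells with a control siRNA or an empty vector were not analysed here, so the effect of transfection cannot be told apart from that of the siRNA or the overexpressed RNA. The methods of the study place transient transfection in HOS, another osteosarcoma line, while the labels give U2OS for all 12 libraries, and the single siRNA dose and harvest time in the methods are not tied to these libraries by a label. The labels list mouse as the organism, whereas every gene carries a human Ensembl identifier. The study's supplementary methods speak of a pair of biological replicates per condition. A figure legend of the study gives 3 experimental repeats, and 3 replicates are labelled here. The labels do not say whether these were separate cultures, so p-values measure the spread between these libraries, which may be technical.

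The level of a gene was its FPKM as deposited, the fragments of the gene divided by its length in kilobases and by a library size. The library size implied by the values was 0.712, 0.888 and 1.06 times the reads on genes in siSRSF1-3 replicates 1, 2 and 3. It was between 0.990 and 1.09 times these reads in the other libraries. FPKM as deposited thus did not follow the read total alone. The libraries held between 26237763 and 32954539 reads on genes. SRSF1 was 35.9, 19.8 and 20.5 FPKM in the blank replicates, between 7.09 and 7.46 with siSRSF1-2 and between 3.33 and 7.90 with siSRSF1-3. Its log2 fold change against blank cells was -1.72 with siSRSF1-2 (limma, adjusted p = 0.00500) and -2.09 with siSRSF1-3 (limma, adjusted p = 0.0518). LINC01134 was between 0.497 and 0.791 FPKM in blank cells and between 878 and 1279 FPKM in OE-LINC01134. Some libraries stood apart from their group. Over 10869 genes with at least 100 reads, the median squared difference between replicates was 42.1 and 44.0 times counting noise between blank replicate 1 and the other blank replicates, but 2.50 times between blank replicates 2 and 3. OE-LINC01134 replicate 2 stood apart in the same way, at 44.4 and 46.0 times against 2.02 times between replicates 1 and 3. The siSRSF1-2 replicates differed by 2.38 to 3.04 times counting noise and the siSRSF1-3 replicates by 30.2 to 140 times. The FPKM of all genes summed to 611084, 410612 and 302504 in siSRSF1-3 replicates 1, 2 and 3 and to between 281051 and 324607 in the other libraries. Of 6 osteosarcoma and mesenchymal markers, RUNX2, COL1A1, SPARC, VIM and ALPL were above 1 FPKM in every library, while COL1A2 did not exceed 0.0131 FPKM.

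The receptors PLXNB2 and EPHA2 dominated the guidance genes in U2OS cells. In blank cells PLXNB2, a plexin for class 4 semaphorins, was 63.8 ± 3.56 FPKM (SD, n = 3) and EPHA2, a receptor for A-type ephrins, was 49.5 ± 1.22 FPKM (SD, n = 3). These receptors held 36.5% ± 1.04 (SD, n = 3) of the FPKM of all 56 genes in blank cells, 38.8% ± 0.227 with siSRSF1-2, 40.4% ± 3.57 with siSRSF1-3 and 47.9% ± 7.63 in OE-LINC01134. Each PLXNB2 value in blank cells lay above each EPHA2 value, and each EPHA2 value lay above every value of the other guidance genes. Among the ligands, the membrane-anchored SEMA7A had the next highest level in blank cells, at 17.7 ± 6.38 FPKM, followed by the transmembrane SEMA6B at 15.5 ± 0.770, SEMA4C at 12.3 ± 0.122 and the B-type ephrin EFNB1 at 11.5 ± 3.19 FPKM (SD, n = 3 each). The receptors PLXNA1, EPHB4 and PLXND1 were at 13.4 ± 3.14, 13.0 ± 4.58 and 8.24 ± 2.46 FPKM, and the co-receptor NRP1, which binds class 3 semaphorins and VEGF, was at 12.7 ± 0.363 FPKM (SD, n = 3 each). Ordered by mean over both roles (SEMA7A, SEMA6B, PLXNA1, EPHB4, NRP1, SEMA4C, EFNB1, PLXND1), each of these genes overlapped the next in its range over the blank libraries.

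Of the 56 genes, 9 had a mean of at least 10 FPKM in blank cells, 21 lay between 1 and 10 FPKM, 8 between 0.5 and 1 FPKM and 18 under 0.5 FPKM. The low end held most of the EPHA receptors. EPHA7 had 1 read in 12 libraries, and EPHA3 had at most 3 reads in any library, no more than the 3 reads that an observed count of 0 leaves possible (counting error only). EPHA1, EPHA4, EPHA6 and EPHA8 stayed between 0.0193 and 0.679 FPKM in all 12 libraries. SEMA5B, SEMA6D, SEMA4A and SEMA3D were likewise under 0.122 FPKM in every library. A gene entered the tests with a mean of at least 0.5 FPKM over the 12 libraries, which 37 of the 56 did, namely 13 semaphorins, 7 plexins, NRP1, 7 ephrins, 7 EPH receptors, PLXDC2 and NETO1. Of the remaining 19, the highest mean was 0.480 FPKM (PLXNC1), against 0.510 FPKM for the lowest gene tested (EPHB1).

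**Figure D1:**
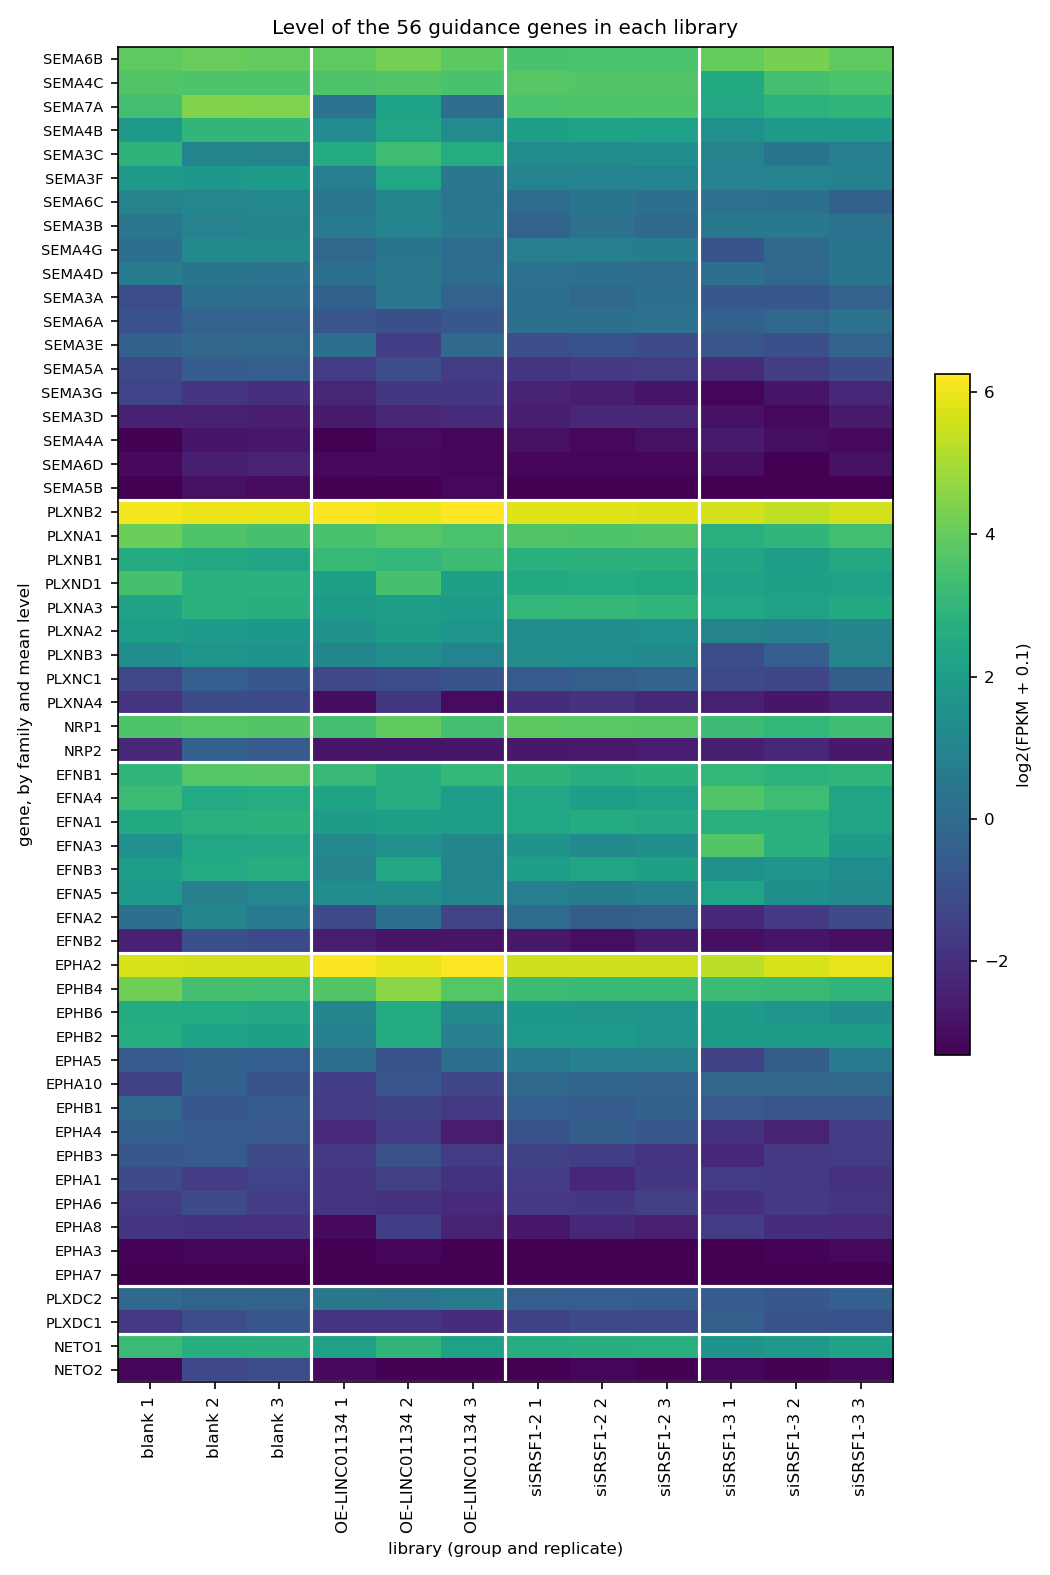
Level of each of the 56 guidance genes (rows, ordered by family and mean) in each of the 12 libraries (columns), as log2(FPKM + 0.1) on a color scale. PLXNB2 and EPHA2 have the highest level in every library, and the lower rows of the semaphorin and EPH receptor blocks are near the bottom of the scale.

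The genes lie on 18 chromosomes, in the coordinates of the deposited table, whose genome build is not given in the sources used here. Chromosomes 3, 1 and 7 held 11, 10 and 8 of them. SEMA3F (50155045 to 50189075) and SEMA3B (50267558 to 50277546) are neighbours on chromosome 3. SEMA3C, SEMA3E, SEMA3A and SEMA3D lie between 80742538 and 85186855 on chromosome 7. The ephrins EFNA4, EFNA3 and EFNA1 lie in that order between 155063731 and 155134857 on chromosome 1, all on the plus strand.

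The first comparison asked how the guidance genes differed between cells given siSRSF1-2 and blank cells. EPHA5, an EPH receptor for A-type ephrins that is best known from the brain, rose with siSRSF1-2, and no guidance gene fell past the threshold. The threshold was an adjusted p under 0.05 (limma on log2(FPKM + 0.1), Benjamini-Hochberg over 17538 genes) with an absolute log2 fold change over 1, and 4.95% of all genes tested passed it in this comparison, 2.22% as higher and 2.73% as lower. Of the 37 guidance genes tested, 1 was thus called higher and 0 were called lower, and the counts were also 1 and 0 when p was left unadjusted and the fold change limit kept (3.06% and 3.43% of all genes). In bulk RNA a gene expressed in more cells cannot be told apart from more RNA per cell. EPHA5 (ENSG00000145242, chromosome 4 from 65319563 to 65670495) was 0.569, 0.680 and 0.619 FPKM in blank replicates 1, 2 and 3 and 1.46, 1.72 and 1.73 FPKM in siSRSF1-2 replicates 1, 2 and 3. Every siSRSF1-2 library was above every blank library, and the log2 fold change was 1.26 with a standard error (SE) of 0.148 (limma, adjusted p = 0.00353). The other siRNA did not show this rise in all replicates. In siSRSF1-3 replicates 1, 2 and 3 EPHA5 was 0.259, 0.616 and 1.42 FPKM, below, within and above the blank range. The log2 fold change was 0.02, with a wide SE of 0.551 (limma, adjusted p = 0.985). Each siSRSF1-3 library was below each siSRSF1-2 library, but this difference was not called (log2 fold change -1.24, limma, adjusted p = 0.122). OE-LINC01134 replicates 1, 2 and 3 had 1.06, 0.454 and 0.996 FPKM of EPHA5, above the blank range in replicates 1 and 3 and below it in replicate 2. EPHA5 overlaps its antisense RNA EPHA5-AS1 and a ribosomal protein pseudogene, and because the strand setting of the counting is not given, reads of overlapping genes cannot be told apart. The EPHA5 call was lost in the fit over all 4 groups (limma, adjusted p = 0.142, within a range of 0.000880 to 0.797 over all settings), with a pseudocount of 1 (log2 fold change 0.70) and when near-identical libraries were averaged, which left a single siSRSF1-2 value.

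Smaller differences in the siSRSF1-2 cells were mostly toward lower levels. With the fold change left aside, 9 guidance genes were lower and 2 higher at an adjusted p under 0.05, where 12.8% and 14% of all genes were. The 9 genes were 24.3% of the guidance genes tested. They included the ligands SEMA3B, SEMA3E, SEMA3F, SEMA6B and SEMA6C and the receptors PLXNA2, PLXNB2, EPHB2 and EPHB6. The secreted ligand SEMA3F was 3.58, 3.38 and 3.72 FPKM in the blank replicates and 1.90, 1.80 and 1.92 FPKM in the siSRSF1-2 replicates, so the groups did not overlap. Its log2 fold change was -0.89 (limma, adjusted p = 0.00226, SE 0.0861), with the limit that SEMA3F overlaps SEMA3F antisense RNA 1. Log2 fold changes were close to it in the related ligands SEMA3B (-0.84), SEMA3E (-0.81) and SEMA6C (-0.84). EPHB6, an EPH receptor without kinase activity, had a log2 fold change of -0.76, and PLXNB2, the most abundant guidance gene, had one of -0.22. The other gene on the higher side was PLXNB1, a receptor of SEMA4D, at 0.34. All 7 ephrins tested had a log2 fold change below 0, from -0.90 to -0.22, and none had an adjusted p under 0.05.

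The A-type ephrin EFNA2 had the lowest fold change with siSRSF1-2. It was 1.03, 1.93 and 1.45 FPKM in the blank replicates and 0.917, 0.606 and 0.654 FPKM in the siSRSF1-2 replicates, from 27, 52 and 45 reads against 25, 17 and 22 reads. Each siSRSF1-2 library was below each blank library, but blank replicate 1 lay closer to the siSRSF1-2 libraries than to blank replicate 2. The log2 fold change was -0.90 (limma, adjusted p = 0.0527, SE 0.268), short of the threshold. Without blank replicate 1, EFNA2 (-1.12) and SEMA3B (-1.03) were called lower beside the higher EPHA5, where 3.74% and 3.03% of all genes were.

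Over the 37 genes, 29 (78.4%) had a log2 fold change below 0 with siSRSF1-2, against 48.3% of all genes tested, and the median was -0.30 against 0.02. The FPKM of 18 guidance genes were lower in each siSRSF1-2 library than in each blank library and those of 7 were higher, which together is 67.6% of those tested against 49.5% of all genes (24.2% lower and 25.3% higher). The siSRSF1-2 libraries were the most alike of the 4 groups, and the part of this small spread in the adjusted p-values was not tested.

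**Figure D2:**
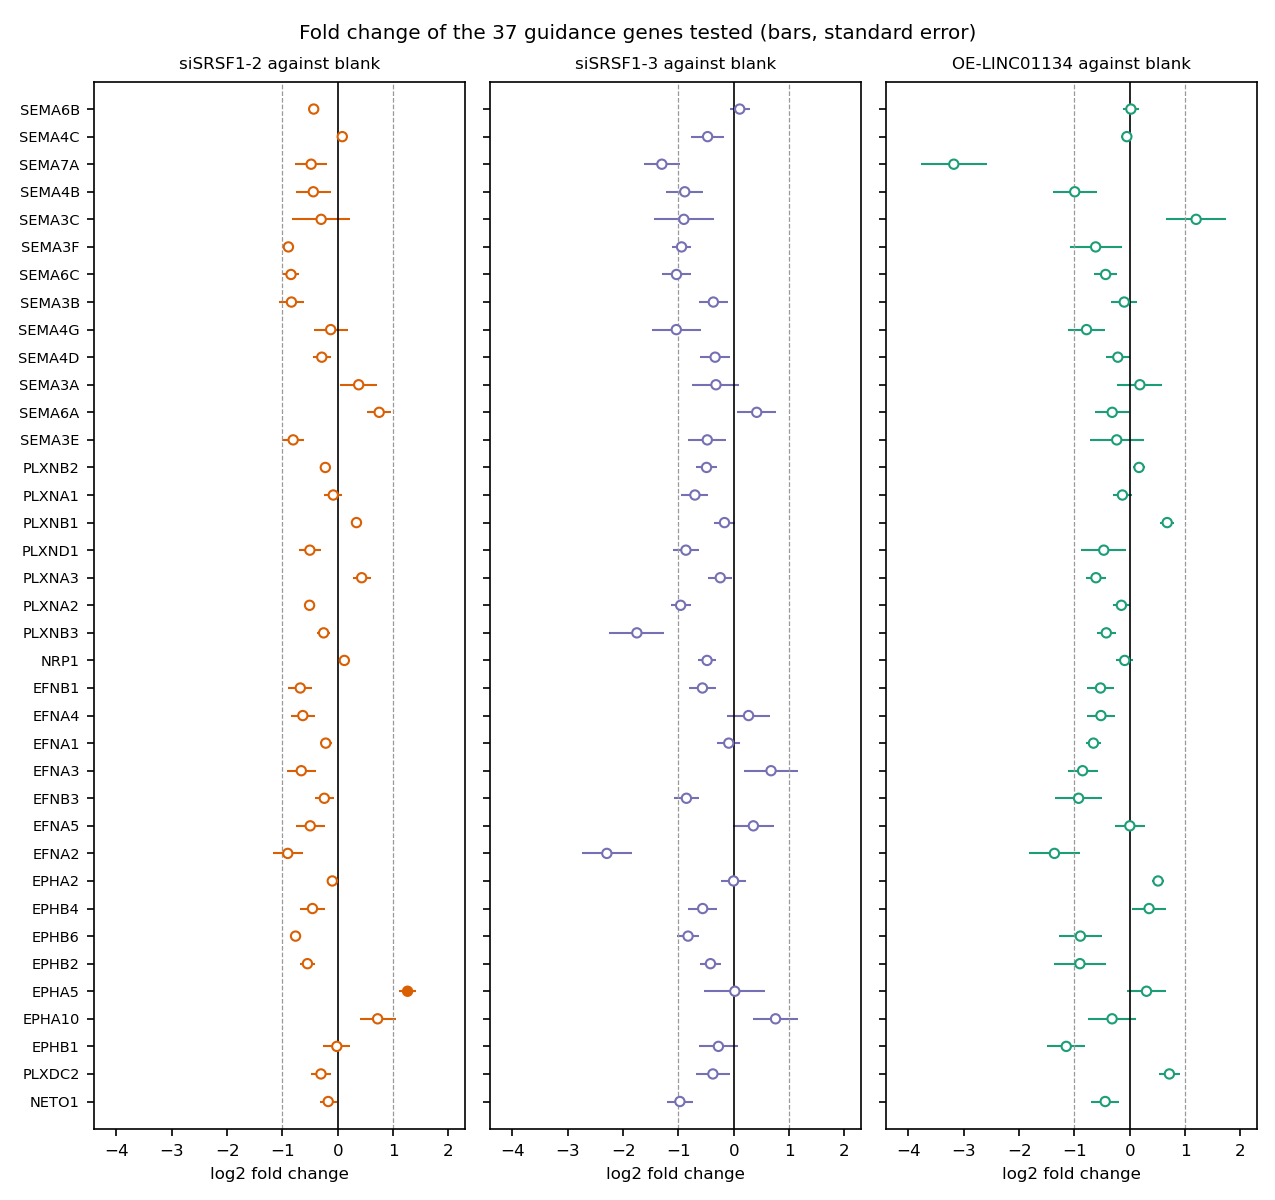
Log2 fold change of the 37 guidance genes tested (rows, by family) against blank cells for siSRSF1-2, siSRSF1-3 and OE-LINC01134, on the log2(FPKM + 0.1) scale. Bars are standard errors from limma, filled points passed the threshold and dashed lines mark a log2 fold change of 1 and -1. EPHA5 with siSRSF1-2 (1.26) is the filled point, and SEMA7A in OE-LINC01134 (-3.18) lies farthest from 0.

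The second comparison set cells given siSRSF1-3 against blank cells. EFNA2, the plexin PLXNB3 and SEMA7A had the lowest fold changes, each with all 3 siSRSF1-3 libraries below all 3 blank libraries, and none of them passed the threshold. No guidance gene was called higher or lower (0 of 37), where 1.26% of all genes tested were called, 0.331% as higher and 0.929% as lower. When p was left unadjusted and the fold change limit kept, 0 were higher and 4 lower, against 7.57% and 7.24% of all genes, and limma's voom on reads recovered from the FPKM also called 0 and 4 (0.399% and 2.33% of all genes). At the unadjusted p these were SEMA6C, SEMA7A, PLXNB3 and EFNA2, and with voom they were SEMA3F, SEMA6C, PLXNA2 and EPHB6. SEMA6C, PLXNA2 and EPHB6 are named here after their values were seen.

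Among the ligands, EFNA2 (ENSG00000099617, chromosome 19 from 1286154 to 1300237) was 0.107, 0.207 and 0.372 FPKM in siSRSF1-3 replicates 1, 2 and 3, from 2, 5 and 11 reads. All of these were below the blank range of 1.03 to 1.93 FPKM, and the log2 fold change was -2.29 (limma, adjusted p = 0.0555, SE 0.450). The log2 fold change was -0.996 with a pseudocount of 1 and -2.74 with one of 0.01, so its size depends on the pseudocount. SEMA7A (ENSG00000138623, chromosome 15 from 74409289 to 74433958), a semaphorin held by a lipid anchor that binds plexin C1 and integrins, was 10.3, 21.7 and 20.97 FPKM in the blank replicates and 5.46, 7.22 and 7.80 FPKM in siSRSF1-3 replicates 1, 2 and 3. The groups did not overlap, although blank replicate 1 was nearer to the siSRSF1-3 libraries than to the other blank libraries, and the log2 fold change was -1.30 (limma, adjusted p = 0.0809, SE 0.324).

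The receptor PLXNB3 (ENSG00000198753, chromosome X from 153764196 to 153779346), a plexin that binds SEMA5A, was 2.51, 3.19 and 2.98 FPKM in the blank replicates and 0.393, 0.623 and 1.85 FPKM in siSRSF1-3 replicates 1, 2 and 3. Replicate 3 lay nearer to the blank libraries than replicates 1 and 2 did. The log2 fold change was -1.75 (limma, adjusted p = 0.0971, SE 0.496), and the gene overlaps SRPK3 on the same strand and another transcript on the opposite strand. All 7 plexins tested had a log2 fold change below 0, from -1.75 to -0.17, as did NRP1 at -0.48. EPHA10, an EPH receptor without kinase activity, was the only one of the 37 genes with every siSRSF1-3 library above every blank library, at a log2 fold change of 0.76 (limma, adjusted p = 0.238).

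Levels among the siSRSF1-3 replicates differed widely for several members. The A-type ephrin EFNA3 was 13.0, 6.90 and 3.43 FPKM in replicates 1, 2 and 3, and its chromosomal neighbour EFNA4 was 12.6, 9.75 and 4.67 FPKM. EPHA5 ran in the opposite order, at 0.259, 0.616 and 1.42 FPKM. The summed FPKM of all genes was also highest in replicate 1 and lowest in replicate 3, and its part in these values was not tested.

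Of the 37 genes, 30 (81.1%) had a log2 fold change below 0 with siSRSF1-3, against 50.7% of all genes tested, and the median was -0.48 against -0.01. The FPKM of 17 genes were lower in every siSRSF1-3 library and that of 1 gene higher, together 48.6% of those tested against 37.2% of all genes (18% lower and 19.2% higher). With every library brought to one FPKM total, the median of all genes moved to -0.43 and that of the guidance genes to -0.91, so the distance between the medians was -0.48 against -0.47 with FPKM as deposited. Without siSRSF1-3 replicate 3, 5 guidance genes were called lower and 0 higher, namely SEMA7A, PLXNA2, PLXNB3, EFNA2 and NETO1, where 11.4% and 12.5% of all genes were.

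**Figure D3:**
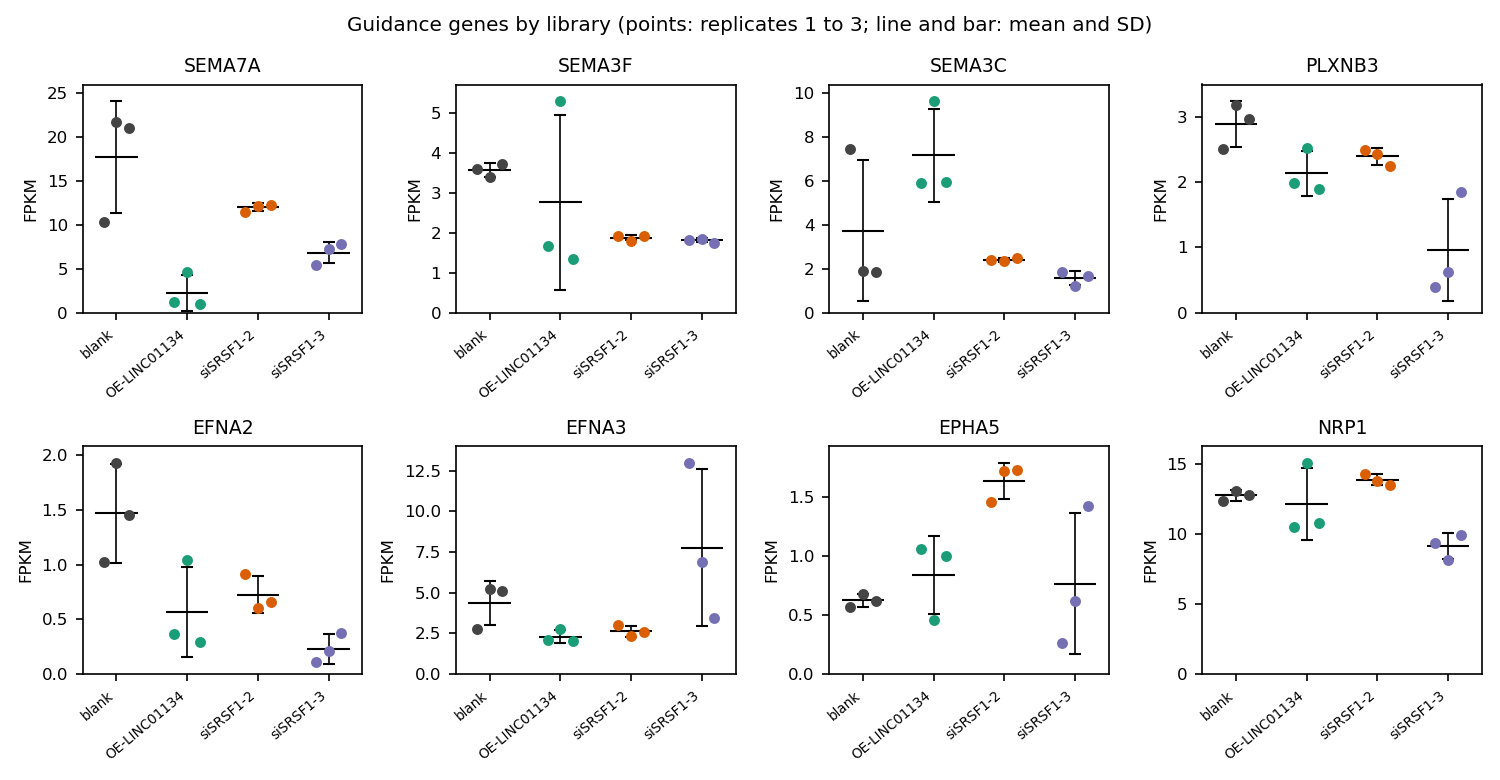
FPKM of 8 guidance genes in each library (points, replicates 1 to 3 from left to right) by group, with the mean (line) and SD (bar). EPHA5 is higher in all 3 siSRSF1-2 libraries (1.46 to 1.73 FPKM) than in the blank libraries (0.569 to 0.680 FPKM), while in SEMA3F and NRP1 OE-LINC01134 replicate 2 is the highest point of the panel.

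The third comparison set OE-LINC01134 cells against blank cells. SEMA7A had by far the lowest fold change, SEMA3C the highest, and neither passed the threshold. No guidance gene was called (0 of 37), where 0.85% of all genes tested were called, 0.257% as higher and 0.593% as lower. Unadjusted p-values with the fold change limit gave 0 higher and 3 lower (SEMA7A, EFNA2 and EPHB1), against 2.45% and 5% of all genes, and voom on recovered reads called 0 and 2 (SEMA7A and EPHB1, against 0.468% and 1.12% of all genes). EPHB1 is named here after its values were seen.

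Among the ligands, SEMA7A was 1.16, 4.64 and 0.976 FPKM in OE-LINC01134 replicates 1, 2 and 3, against 10.3, 21.7 and 20.97 FPKM in the blank replicates. Each OE-LINC01134 library was below each blank library, with replicate 2 the nearest, and the log2 fold change was -3.18 (limma, adjusted p = 0.0585, SE 0.594). It passed the threshold in the fit over all 4 groups (limma, adjusted p = 0.00579), and over all settings the log2 fold change ran from -4.20 to -2.62 and the adjusted p from 0.000152 to 0.597. The secreted ligand SEMA3C (ENSG00000075223, chromosome 7 from 80742538 to 80922359) was 5.91, 9.63 and 5.96 FPKM in OE-LINC01134 replicates 1, 2 and 3, against 7.44, 1.89 and 1.85 FPKM in the blank replicates. Blank replicate 1 was within the OE-LINC01134 range, whereas blank replicates 2 and 3 were below all 3 OE-LINC01134 libraries and near the siSRSF1-2 libraries (2.34 to 2.49 FPKM). The log2 fold change of SEMA3C was 1.20 (limma, adjusted p = 0.213, SE 0.537). EFNA2 was 0.364, 1.04 and 0.295 FPKM in OE-LINC01134 replicates 1, 2 and 3. Replicate 2 fell within the blank range, and the log2 fold change was -1.36 (limma, adjusted p = 0.132, SE 0.457).

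Receptors differed in both directions. EPHA2 was 74.5, 61.7 and 76.5 FPKM in OE-LINC01134 replicates 1, 2 and 3, all above the blank range of 48.2 to 50.6 FPKM, with a log2 fold change of 0.51 (limma, adjusted p = 0.0716). PLXNB1 and PLXDC2 were the other genes with every OE-LINC01134 library above every blank library, at log2 fold changes of 0.68 and 0.72. EPHB1, by contrast, was below every blank library in all 3 OE-LINC01134 libraries, at a log2 fold change of -1.15 (limma, adjusted p = 0.109). PLXNA3, EFNA1, EFNA3 and SEMA7A were the remaining genes with every OE-LINC01134 library below every blank library.

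OE-LINC01134 replicate 2 lay within the blank range for many members. In replicates 1 and 3, 22 of the 37 guidance genes (59.5%) were below all blank libraries, and in 17 of these 22 replicate 2 was not. Over all genes tested, 4761 (27.1%) were below in replicates 1 and 3, and in 2345 of these replicate 2 was not. EPHB2 was 1.74, 5.83 and 1.69 FPKM in OE-LINC01134 replicates 1, 2 and 3, and 6.01, 4.62 and 4.31 FPKM in the blank replicates. SEMA3F showed the same order, at 1.65, 5.28 and 1.34 FPKM, but its replicate 2 was above the blank range of 3.38 to 3.72 FPKM. Without blank replicate 1 and OE-LINC01134 replicate 2, a setting added after the data were seen, 1 guidance gene was called higher (SEMA3C) and 10 lower (the ligands SEMA3F, SEMA4B, SEMA4G, SEMA7A, EFNA2, EFNA3 and EFNB3 and the receptors EPHB1, EPHB2 and EPHB6), where 5.1% and 8.84% of all genes were. In that setting each group was a pair of libraries that differed by 2.50 (blank) and 2.02 (OE-LINC01134) times counting noise.

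Over all 6 libraries of this comparison, 27 of the 37 genes (73.0%) had a log2 fold change below 0, against 45.1% of all genes tested, and the median was -0.32 against 0.05. The FPKM of 5 genes were lower and those of 3 higher in every OE-LINC01134 library, together 21.6% of those tested against 30.6% of all genes (13.8% lower and 16.8% higher). The summed FPKM of 6 neuronal markers was 20.8 to 32.8 in blank cells and 9.20 to 16.9 in OE-LINC01134, against 20.5 to 26.9 with the siRNAs, with SYP and NEFL the largest and none of the 6 at 0 in all libraries of a group. RBFOX3, SYN1 and NEFL were lower in every OE-LINC01134 library than in every blank library, while SNAP25, SYP and MAP2 overlapped. MAP2 was 2.05, 1.30 and 2.06 FPKM in OE-LINC01134 replicates 1, 2 and 3, against 1.26 to 1.42 FPKM in blank cells. SYP in blank replicate 1 (2.80 FPKM) lay within the OE-LINC01134 range of 2.33 to 2.98 FPKM. The part of these markers in the fold changes of the guidance genes was not tested. The summed markers of leukocytes (4 genes, CD3E at 0 in every library) did not exceed 0.196 FPKM, those of endothelium (5 genes) 1.25 FPKM and those of epithelium (3 genes) 2.99 FPKM in any library.

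The fourth comparison set siSRSF1-3 against siSRSF1-2. No guidance gene was called (0 of 37), where 0.0855% of all genes tested were called, 0.0342% as higher and 0.0513% as lower. Unadjusted p-values with the fold change limit gave 1 higher (EFNA3) and 2 lower (PLXNB3 and EFNA2), against 9.01% and 7.42% of all genes. Voom on recovered reads called 0 and 0, where it called 0% and 0% of all genes. PLXNB3 was 2.50, 2.44 and 2.26 FPKM in siSRSF1-2 replicates 1, 2 and 3, above all siSRSF1-3 libraries, and its log2 fold change was -1.50 (limma, adjusted p = 0.0920, SE 0.502). EFNA2 also did not overlap between the siRNAs, with a log2 fold change of -1.39 (limma, adjusted p = 0.0836, SE 0.408).

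EFNA3 was 2.99, 2.32 and 2.60 FPKM in siSRSF1-2 replicates 1, 2 and 3, below all siSRSF1-3 libraries, and its log2 fold change was 1.33 (limma, adjusted p = 0.0947, SE 0.462). Of the other A-type ephrins, EFNA5 was also higher in every siSRSF1-3 library (0.85), while EFNA4 (0.90) and EFNA1 (0.13) overlapped between the siRNAs. EFNA1 turned to -0.44 with every library brought to one FPKM total, and EFNA3, EFNA4 and EFNA5 stayed above 0. All 7 plexins tested were lower in every siSRSF1-3 library than in every siSRSF1-2 library, with log2 fold changes from -1.50 to -0.27 and adjusted p-values from limma no smaller than 0.0725. In all, 19 of the 37 genes were lower and 4 higher in every siSRSF1-3 library, together 62.2% against 54.6% of all genes tested (27.6% lower and 27% higher). Of the 37 genes, 26 (70.3%) had a log2 fold change below 0, against 51.1% of all genes, and the median was -0.27 against -0.02. Without siSRSF1-3 replicate 3, 3 genes were called higher (EFNA3, EFNA4 and EFNA5) and 4 lower (SEMA4G, PLXNB3, EFNA2 and EPHA5), where 16% and 14.5% of all genes were.

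Several guidance genes under the filter had their highest levels in blank replicates 2 and 3. NRP2, the neuropilin for SEMA3F, was 0.689 and 0.570 FPKM in blank replicates 2 and 3 (272 and 259 reads) and at most 0.117 FPKM (45 reads) in the other 10 libraries, blank replicate 1 included. NETO2, an accessory subunit of kainate receptors, was 0.325 and 0.384 FPKM there (69 and 94 reads) and at most 4 reads elsewhere. EFNB2, a B-type ephrin, was 0.400 and 0.341 FPKM, and at most 0.0863 FPKM in the other 10 libraries. Blank replicates 2 and 3 were above the 10 other libraries in 7 of the 19 genes not tested. The same share over all genes under the filter was not computed. Among the 37 genes tested, blank replicates 2 and 3 were above the other libraries in 8 (21.6%), against 5.53% of all genes tested. The 8 were SEMA4B, SEMA4G, SEMA6C, SEMA7A, PLXNB3, EFNA2, EFNB1 and EFNB3. Blank replicate 1 was more than 1.5-fold below the mean of replicates 2 and 3 in 10 of the 37 genes (27.0%, against 15.0% of all genes tested) and more than 1.5-fold above it in 6 (16.2%, against 12.3%).

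**Figure D4:**
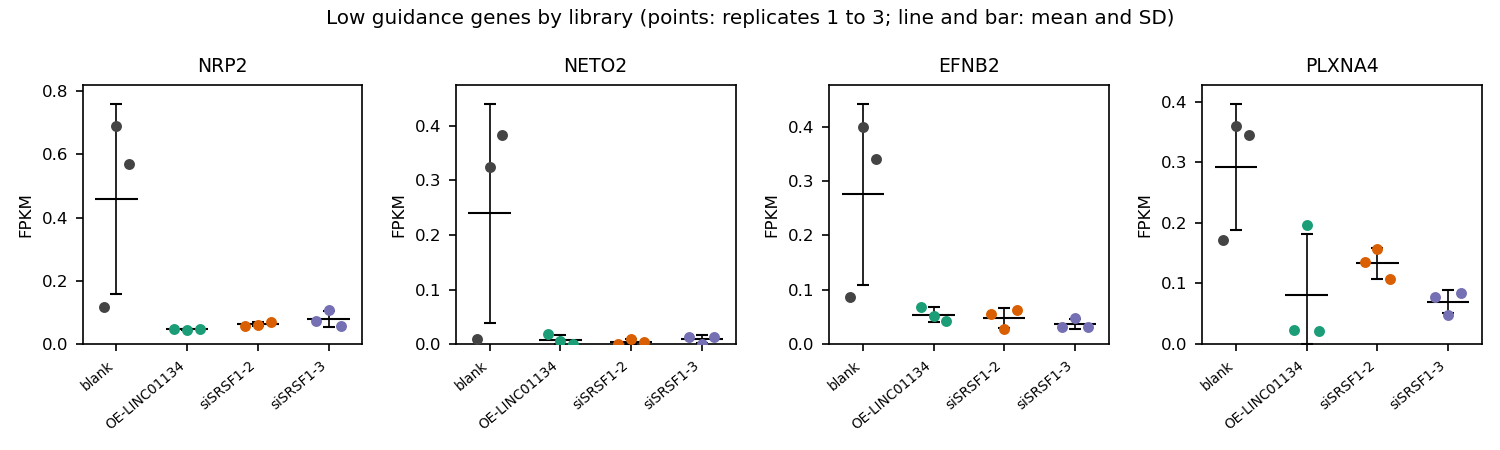
FPKM of NRP2, NETO2, EFNB2 and PLXNA4, which were under the filter, in each library (points, replicates 1 to 3 from left to right) by group, with the mean (line) and SD (bar, ended at 0 below). Blank replicates 2 and 3 are the highest points in every panel, and blank replicate 1 lies with or near the other groups.

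Other genes of the guidance pathways were taken from a list of netrins, slits and their receptors, plexin and EPH co-receptors, cytoplasmic effectors and shedding proteases. Of its 76 symbols 75 were matched and 58 were tested. The collapsin response mediator genes DPYSL2 and DPYSL3, cytoplasmic proteins that carry semaphorin signals to the cytoskeleton, and NTN1, the secreted ligand netrin 1, fell with both siRNAs. NTN1 and DPYSL3 were also lower in every OE-LINC01134 library than in every blank library, short of the threshold. With siSRSF1-2, 0 genes of the list were called higher and 4 lower (NTN1, DPYSL2, DPYSL3 and DPYSL5), against 2.22% and 2.73% of all genes, with a median log2 fold change of 0.05 over the 58. With siSRSF1-3, 0 were called higher and 4 lower (NTN1, DPYSL2, DPYSL3 and VAV2), against 0.331% and 0.929% of all genes, with a median of -0.33. In OE-LINC01134, 0 were called in either direction (0.257% and 0.593% of all genes), with a median of -0.11. Unadjusted p-values with the fold change limit kept gave 0 higher and 5 lower there, namely SLIT3, L1CAM, PTK7, RND2 and LIMK1 (2.45% and 5% of all genes). Both siRNA comparisons share the blank libraries.

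DPYSL2 was 8.64, 5.29 and 5.29 FPKM in the blank replicates, 1.98, 1.63 and 1.72 FPKM with siSRSF1-2, and 2.15, 1.58 and 1.40 FPKM with siSRSF1-3. No siRNA library reached the blank range, and the log2 fold changes were -1.76 (limma, adjusted p = 0.00367) and -1.83 (limma, adjusted p = 0.0453). In OE-LINC01134 it was 2.33, 7.89 and 2.78 FPKM, so that replicate 2 was within the blank range. DPYSL3 was 12.6 ± 1.93 FPKM (SD, n = 3) in blank cells, 5.95 ± 0.387 with siSRSF1-2 and 4.90 ± 0.804 with siSRSF1-3, at log2 fold changes of -1.06 and -1.34. OE-LINC01134 replicates 1, 2 and 3 had 5.05, 11.2 and 4.83 FPKM of DPYSL3, each below every blank library. The log2 fold change there was -0.93 (limma, adjusted p = 0.144). The related DPYSL5 was 0.848 ± 0.194 FPKM in blank cells and 0.311 ± 0.0426 with siSRSF1-2, at a log2 fold change of -1.19 (limma, adjusted p = 0.0184).

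NTN1 was 5.29, 5.70 and 5.55 FPKM in the blank replicates, between 2.52 and 2.62 FPKM with siSRSF1-2 and 0.967, 1.71 and 2.02 FPKM in siSRSF1-3 replicates 1, 2 and 3. Both siRNA groups lay below the blank range, and the log2 fold changes were -1.08 (limma, adjusted p = 0.00105) and -1.81 (limma, adjusted p = 0.0453). OE-LINC01134 replicates 1, 2 and 3 were also below it, at 2.70, 3.64 and 2.55 FPKM of NTN1. The log2 fold change there was -0.89 (limma, adjusted p = 0.0573). VAV2, a cytoplasmic signaling protein that acts downstream of EPH receptors, was 10.4 ± 0.837 FPKM (SD, n = 3) in blank cells and 4.35 ± 0.404 with siSRSF1-3, at a log2 fold change of -1.24 (limma, adjusted p = 0.0426). The 4 calls with siSRSF1-3 were lost when any single library other than siSRSF1-3 replicate 3 was left out. In each of those settings at most 0.0057% of all genes were called higher and at most 0.16% lower. Without siSRSF1-3 replicate 3, the list had 3 genes called higher and 15 lower (12.5% and 11.4% of all genes). The 4 calls with siSRSF1-2 numbered 1 with a pseudocount of 1 (1.15% of all genes called lower) and 2 in the fit over all 4 groups (1.03%). They numbered 2 with every library brought to one FPKM total (1.94%).

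**Figure D5:**
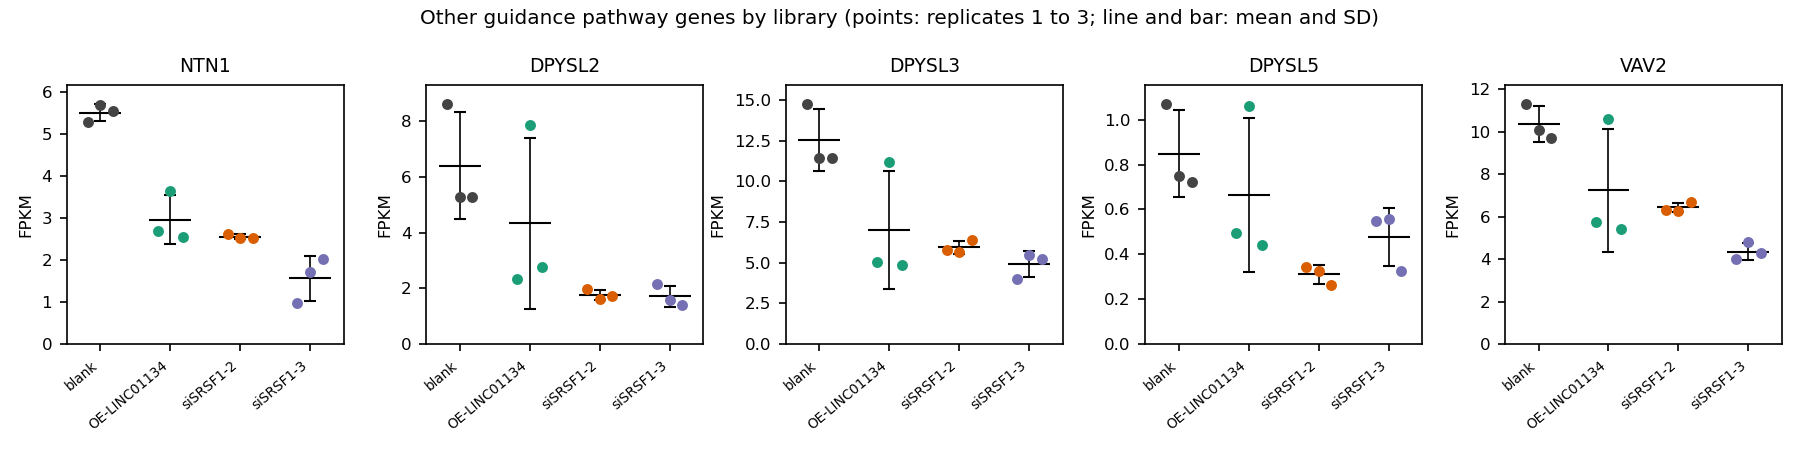
FPKM of NTN1, DPYSL2, DPYSL3, DPYSL5 and VAV2 in each library (points, replicates 1 to 3 from left to right) by group, with the mean (line) and SD (bar). Every siRNA library is below every blank library in all 5 panels, and OE-LINC01134 replicate 2 is the highest OE-LINC01134 point in each.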

How the data were processed

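RNA-Seq was done on 12 libraries of U2OS cells in 4 groups of 3. The authors deposited FPKM per gene and library with gene lengths and coordinates. The labels name mouse genome builds although the identifiers are human, and the aligner, counter and human build are not given in the sources used here. The labels and the study's methods name different library kits. FPKM times gene length gave whole reads (tolerance 0.01 read) for 100% of values, between 26237763 and 32954539 per library. Symbols were matched through full names. Groups were compared in pairs with limma 3.58.1 (eBayes with a mean-variance trend) in R 4.3.3 on log2(FPKM + 0.1). A mean of at least 0.5 FPKM, which 17538 genes had, was required, and fold changes of low genes are understated. Calls needed an absolute log2 fold change over 1 and p under 0.05 after Benjamini-Hochberg adjustment. The fit was tested on simulated data in which all libraries had the same spread, so this test did not cover libraries that stand apart. The members, lists and tests were chosen with earlier results of these data known. Named genes were SRSF1 and LINC01134, members past the threshold, the 3 members with the largest fold change in each comparison, the 10 highest in blank cells, and listed pathway genes past the threshold. Other members are named after their values were seen. With 3 libraries against 3, exact permutation cannot reach a p below 0.1. Alternatives were other pseudocounts, filters and scalings, voom on the recovered reads, eBayes without a trend, unadjusted p-values, calls at any fold change, a joint fit of the 4 groups, the omission of libraries and blocking on replicate number. Gene sequences were not used here.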

Additional observations from a re-analysis of the deposited data

Results flagged for a closer look

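NRP1 and SEMA4C lay on opposite sides of the blank cells with the 2 siRNAs. These genes were picked by this rule, and the share of all genes that met it was not computed. NRP1 was 14.3, 13.8 and 13.5 FPKM in siSRSF1-2 replicates 1, 2 and 3 and 9.32, 8.12 and 9.91 FPKM in siSRSF1-3 replicates 1, 2 and 3, with blank libraries between 12.3 and 13.1 FPKM. The log2 fold change of siSRSF1-3 against siSRSF1-2 was -0.60 (limma, adjusted p = 0.0725). Against blank cells NRP1 was at 0.12 with siSRSF1-2 (limma, adjusted p = 0.186) and at -0.48 with siSRSF1-3 (limma, adjusted p = 0.123). SEMA4C was between 12.5 and 13.5 FPKM with siSRSF1-2 and 5.48, 10.8 and 11.6 FPKM with siSRSF1-3, with blank libraries between 12.2 and 12.4 FPKM. Its log2 fold change between the siRNAs was -0.55 (limma, adjusted p = 0.186). Against blank cells SEMA4C was at 0.08 with siSRSF1-2 (limma, adjusted p = 0.347) and at -0.47 with siSRSF1-3 (limma, adjusted p = 0.307). None of these differences passed the threshold.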

How the results depend on the processing

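None of the medians and 20 named results on single genes changed direction. With siSRSF1-2, the guidance genes called higher (1) numbered 0 with a pseudocount of 1 (1.01% of all genes) and in the fit over all groups (0.764%). They also numbered 0 with a mean of at least 1 FPKM (2.15%), where EPHA5, at a mean of 0.965 FPKM, was not tested. With no minimum fold change they numbered 2 (14% of all genes). Those called lower (0) numbered 9 with no minimum fold change (12.8%) and 0 to 2 with single libraries left out (3.74% without blank replicate 1). They numbered 2 without blank replicate 1 and OE-LINC01134 replicate 2 (3.74%). With siSRSF1-3, those lower (0) numbered 4 with voom, 3 in the fit over all groups (6.71% of all genes), 4 at the unadjusted p and 0 to 5 with single libraries left out. In OE-LINC01134, those higher (0) numbered 0 to 1 with single libraries left out (1.81% of all genes without blank replicate 1). They numbered 1 without blank replicate 1 and OE-LINC01134 replicate 2. Those lower (0) numbered 2 with voom, 2 in the fit over all groups (2.94% of all genes), 3 at the unadjusted p, 0 to 6 with single libraries left out (5.87% of all genes without OE-LINC01134 replicate 2) and 10 without that pair. Between the siRNAs, those higher (0) numbered 1 in the fit over all groups (8.39% of all genes), 1 at the unadjusted p and 0 to 3 with single libraries left out, and those lower (0) numbered 2 (7.18% of all genes), 2 and 0 to 4. The log2 fold change of SRSF1 with siSRSF1-2 was -1.86 with libraries averaged (limma, adjusted p = 0.791), short of the threshold. With siSRSF1-3 it passed the threshold with a pseudocount of 1 (-1.92), with recomputed size factors (-2.13), with voom (-2.37), in the fit over all groups (-2.09) and at the unadjusted p (-2.09), and ran from -2.33 to -1.72 with single libraries left out. The causes were not tested.

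Replicate numbers did not pair the libraries, since the deviations of same-numbered libraries correlated at -0.0815 to 0.0420. With a replicate block the guidance genes called were again 1 higher and 0 lower with siSRSF1-2 (1.71% and 2.17% of all genes). They numbered 0 in the other comparisons, where the block left few or no calls over all genes. These were 0% with siSRSF1-3 and between the siRNAs, and 0.0057% higher and 0.0171% lower in OE-LINC01134. EPHA5 kept an adjusted p of 0.0283 and SRSF1 with siSRSF1-2 one of 0.0274, while that of SRSF1 with siSRSF1-3 was 0.146 (limma). The block lost the call of DPYSL5 with siSRSF1-2. It also lost those of all 4 pathway genes with siSRSF1-3, where 0% of all genes were called.

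Rescaling FPKM to the same sum moved the median over all genes, on the log2 scale, from 0.02 to 0.15 with siSRSF1-2, from -0.01 to -0.43 with siSRSF1-3 and from -0.02 to -0.57 between the siRNAs, and that of the guidance genes from -0.30 to -0.17, from -0.48 to -0.91 and from -0.27 to -0.84. It also turned the sign of some uncalled guidance genes, not all of them near 0. Between the siRNAs, SEMA6B went from 0.54 to -0.03 and SEMA3B from 0.47 to -0.06. Guidance genes below 0 numbered 26 in place of 29 with siSRSF1-2 (37.5% of all genes) and 34 in place of 30 with siSRSF1-3 (72% of all genes). They numbered 26 in place of 27 in OE-LINC01134 (37.9%) and 34 in place of 26 between the siRNAs (75.9%). The pathway genes called lower with siSRSF1-3 (4) numbered 0 after rescaling to the same sum, where 0% of all genes were called lower. They numbered 1 with eBayes without a trend (0.69% of all genes) and with a pseudocount of 0.01 (0.268%). They also numbered 1 without the filter (0.216%) and with FPKM scaled to each read total (0.331%). In the fit over all groups they numbered 7 (6.71%). Of all calls with siSRSF1-2, 44.8% were higher with FPKM as deposited and 64.0% after rescaling to the same sum. Of 411 alternative values for these named results, 312 stayed on their side of the threshold, 68 lost the call, 31 gained it and 0 turned. With 2 to 52 reads per library, EFNA2 is limited by depth.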

Other observations

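SEMA4F, a class 4 semaphorin that the choice of members missed because of its spelling in the table, was 3.58, 6.25 and 6.39 FPKM in blank replicates 1, 2 and 3. It was 2.24, 3.49 and 2.25 FPKM in OE-LINC01134 replicates 1, 2 and 3, each below every blank library. With siSRSF1-2 it was between 5.18 and 5.84 FPKM and with siSRSF1-3 between 4.40 and 4.98 FPKM. Those values lay within the blank range, between blank replicate 1 and the other blank replicates.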
